A study of Mus musculus with 32 samples.

Results

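The genes described here encode the proteins of the cytosolic ribosome in mouse E14 embryonic stem (ES) cells. They were chosen by symbol alone, as Rpl or Rps followed by a number together with Rpsa, Rplp0, Rplp1 and Rplp2, without the Rps6k kinases, the pseudogenes and the -like paralogs, and only through probes that carry 1 gene symbol. This gave 66 genes of 19190 named on either platform. The RNA interference (RNAi) arrays held 43 of them on 95 probe sets, the 2-colour arrays held 63 on 71 probes, and 40 were on both. A gene with several probes was counted by 1 of them. For RNAi this was the probe set with the highest mean, and for the 2-colour arrays the most complete probe. On the 2-colour arrays both probes of all 8 such genes were complete, so the first by probe ID was counted.

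The ribosome has a large (60S) subunit, built from the proteins named Rpl and Rplp, and a small (40S) subunit, built from those named Rps. Ribosomal proteins are made in near equal numbers, and their messenger RNAs are among the most abundant in a growing cell. Most of these messages begin with a run of pyrimidines, the terminal oligopyrimidine motif, through which their translation follows nutrient and growth signals. ES cells divide fast, and ribosome production is known to be adjusted when they leave the undifferentiated state.

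All groups are the feeder-independent line E14TG2a, called E14. For RNAi, cells were transfected with a pSUPER-puro plasmid. Puromycin at 1 µg/ml was added 24 h later and selection lasted 3 days. The plasmid was the parental vector without an insert (5 arrays, 2 µg), or carried RNAi against Nanog (5 arrays) or against Pou5f1, which encodes Oct4 (4 arrays). No RNAi against an unrelated target was among these samples, so the effect of making any short hairpin RNA cannot be told apart from that of the target. For differentiation, cells received 0.1 µM retinoic acid (RA), 1% dimethyl sulfoxide (DMSO) or 3 mM hexamethylene bisacetamide (HMBA). Each inducer was sampled on days 2, 4 and 6. RNA of each day was hybridised against untreated E14 RNA on 2 arrays of opposite dye orientation, with the treated sample in Cy3 on replicate 1 and in Cy5 on replicate 2. The labels do not say whether arrays of 1 group come from separate cultures, so p-values measure the spread between arrays, which may be technical.

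RNAi values are log2 levels, and 2-colour values are log ratios of treated over untreated cells, whose base was taken as 2 because no source used here states it. A change is printed as the log2 difference ± its standard error (SE). A gene was called where the Benjamini-Hochberg adjusted p of limma's moderated test over all tested probes was under 0.05. The SE on the 2-colour arrays reflects how far the 2 arrays of a day differ, not how far days differ. All samples are bulk RNA, in which fewer cells of a type and less RNA per cell cannot be told apart. Because each array was scaled to a common distribution or centre, a change is relative to the other genes and not an amount per cell.

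Pou5f1 was 11.42 ± 0.09 (SD, n = 5) with vector and fell by 2.38 ± 0.10 (SE) after Pou5f1 RNAi, and Nanog was 11.09 ± 0.08 (SD, n = 5) and fell by 1.81 ± 0.08 after Nanog RNAi. The 5 ES cell markers were Pou5f1, Sox2, Nanog, Zfp42 and Dppa5a. Each RNAi's own target is among them, so its fall is part of the counts and array means that follow. Of these 5 ES cell markers, 5 fell after Pou5f1 RNAi, 3 after Nanog RNAi, 4 with RA, 5 with DMSO and 5 with HMBA. The array mean of these markers was 11.71 to 11.93 with vector, 11.17 to 11.32 after Nanog RNAi and 9.98 to 10.26 after Pou5f1 RNAi. Of 6 trophectoderm markers, 6 rose after each RNAi, from array means of 6.32 to 6.54 with vector to 7.45 to 7.79 (Nanog RNAi) and 9.53 to 9.67 (Pou5f1 RNAi). Of the 5 trophectoderm markers measured on the 2-colour arrays, 0 fell and 1 rose with RA, and 1 fell and 1 rose with each of DMSO and HMBA. The 6 fibroblast markers stayed low on the RNAi arrays, with array means between 4.23 and 4.50. Of these 6, 1 fell and 1 rose after Pou5f1 RNAi, and 1 fell and 0 rose after Nanog RNAi. With RA 0 fell and 3 rose, with DMSO 1 fell and 1 rose, and with HMBA 0 fell and 2 rose. Of 5 primitive endoderm markers, 4 fell and 0 rose after Pou5f1 RNAi and 0 fell and 2 rose after Nanog RNAi. Of the 3 measured on the 2-colour arrays, 3 rose with RA, 1 fell and 0 rose with DMSO, and 1 fell and 1 rose with HMBA. The part of these cell types in the results below was not tested. DMSO day 4 replicate 2 gave values for 11257 of 21106 probes, against 15679 to 20019 on the other 2-colour arrays.

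With each of the 3 inducers, ribosomal protein genes were lower than in untreated cells in a broad, modest shift. Of 63 genes, 35 fell and 0 rose with RA, 30 fell and 0 rose with DMSO, and 37 fell and 0 rose with HMBA by limma. At an unadjusted p under 0.05, too, 0 were higher with any inducer, and 42, 43 and 44 were lower. The background of probes called lower over all 16657 tested was 10.5% with RA, 7.62% with DMSO and 11.4% with HMBA. The ratios carry no signal level, so this background was not matched to the level of these genes. Whether signal level bears on the ratios was not tested. The median change of the 63 genes was -0.42 with RA, -0.42 with DMSO and -0.50 with HMBA, beside -0.02, 0.02 and -0.00 over all tested probes. Probes called higher made up 14.6%, 9.4% and 13.4%. Leaving out 1 array at a time gave 26 to 34 lower genes with RA, 16 to 32 with DMSO (16 without day 6 replicate 2) and 24 to 36 with HMBA (24 without day 6 replicate 1). The 3 inducers share the untreated reference RNA.

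The medians were below 0 on each of the 18 arrays. With RA the median over the genes was -0.19 and -0.27 on the 2 arrays of day 2, -0.55 and -0.69 on day 4, and -0.41 and -0.45 on day 6. DMSO gave -0.24 and -0.36 on day 2, -0.39 and -0.71 on day 4, and -0.26 and -0.59 on day 6. HMBA gave -0.30 and -0.33 on day 2, -0.40 and -0.56 on day 4, and -0.82 and -0.59 on day 6. The first value of each pair is the array with the treated sample in Cy3, so the shift was seen in both orientations, at a mean of -0.40 ± 0.19 (SD, n = 9) in Cy3 and -0.51 ± 0.16 (SD, n = 9) in Cy5. Among genes with values on all 6 arrays of an inducer, 35 of 59 were below 0 on every one with RA, 33 of 61 with DMSO and 40 of 62 with HMBA. The same held for 10.7%, 9.74% and 14.1% of all probes.

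**Figure D1:**
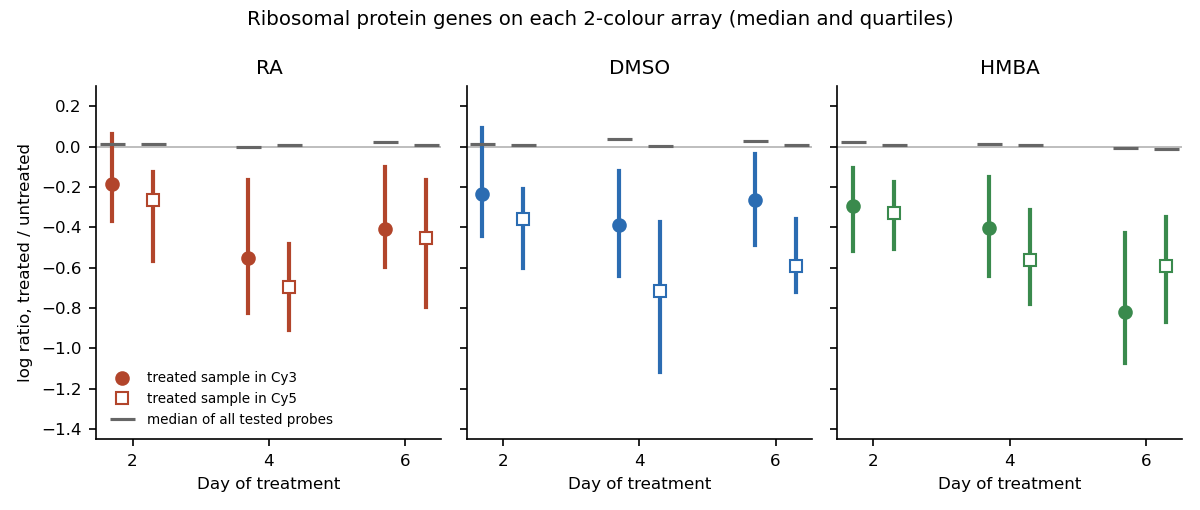
Median (symbol) and quartiles (bar) of the log ratio of treated over untreated cells over the ribosomal protein genes on each of the 18 2-colour arrays, by day, with the sample in Cy3 (filled circles) or Cy5 (open squares); grey dashes are the median of all tested probes. Every median of the ribosomal protein genes lies between -0.82 and -0.19, while the median of all probes stays near 0.

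Many single genes differed between the dye orientations, and arrays of the same orientation deviated together in every pair of groups. Orientation goes with replicate number on every array, so the dye cannot be told apart from anything else that differs between the replicates. With the orientation as a replicate block, 51 genes fell with RA, 54 with DMSO and 54 with HMBA, and Rpl9 rose with RA and HMBA. The background of lower calls in that fit was 23.3%, 18.4% and 23.7%, and of higher calls 26.2%, 22.8% and 24.2%. With the days as replicates, 41, 36 and 44 genes fell (background 13.6%, 8.77% and 14.3%). Averaged over days, 49 genes were below 0 in both orientations with RA, 46 with DMSO and 53 with HMBA, beside 25.9%, 21.6% and 27.3% of all probes. A further 10, 15 and 6 genes were above 0 in Cy3 and below 0 in Cy5.

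Both subunits took part. Of 41 large-subunit genes, 21 fell with RA, 21 with DMSO and 23 with HMBA, with medians of -0.44, -0.42 and -0.52. Of 22 small-subunit genes, 14, 9 and 14 fell, with medians of -0.42, -0.43 and -0.47. Among genes whose human counterparts are mutated in Diamond-Blackfan anaemia, a failure of red cell production, 7 of 14 fell with RA, 6 with DMSO and 8 with HMBA.

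Rpl30, a large-subunit protein, showed the largest fall of any large-subunit gene with RA and HMBA. Its log ratios were -0.45 and -0.69 on day 2 of RA, -0.90 and -1.28 on day 4, and -0.61 and -1.35 on day 6. DMSO gave -0.33, -0.77, -0.80, -1.24, -0.71 and -1.01 over the same days, and HMBA -0.71, -0.66, -0.97, -1.31, -1.28 and -1.31. All 18 values of Rpl30 lay below 0. The mean change of Rpl30 was -0.88 ± 0.12 with RA (1.84-fold lower, adjusted p = 0.00012 by limma), -0.81 ± 0.12 with DMSO (1.76-fold, adjusted p = 0.00037) and -1.04 ± 0.12 with HMBA (2.06-fold, adjusted p = 3.2e-05).

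Rps18, a protein of the head of the small subunit, has 2 probes that gave unlike values. The counted probe ranged from -1.22 to -0.26 over the 6 RA arrays (median -0.52), from -1.03 to -0.32 with DMSO (median -0.62) and from -1.43 to -0.26 with HMBA (median -0.89). It lay below 0 on all 18 arrays, and its changes of -0.58 ± 0.11, -0.64 ± 0.11 and -0.91 ± 0.11 were called with each inducer. The other probe of Rps18 ranged from -1.24 to 0.01 with RA, -0.82 to 0.38 with DMSO and -1.22 to 0.32 with HMBA. It fell by 0.66 ± 0.13 with RA and 0.48 ± 0.13 with HMBA and stood at -0.17 ± 0.13 with DMSO, where it was not called with or without the dye block. Rpl36 and Rpl34, both of the large subunit, were also below 0 on all 18 arrays. Rpl36 changed by -0.65 ± 0.09, -0.65 ± 0.09 and -0.81 ± 0.09, and Rpl34 by -0.55 ± 0.10, -0.70 ± 0.10 and -0.86 ± 0.10 with RA, DMSO and HMBA.

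Rpl13a is a large-subunit protein that also acts outside the ribosome in silencing of inflammatory messages. Its RA arrays ranged from -1.26 to -0.16 (median -0.61), the DMSO arrays from -1.37 to -0.42 (median -0.88) and the HMBA arrays from -1.53 to -0.24 (median -0.79). The changes were -0.66 ± 0.18, -0.86 ± 0.18 and -0.83 ± 0.18. The RA call of Rpl13a was lost without day 2 replicate 2 (adjusted p = 0.059 by limma), day 4 replicate 1 (0.092) or day 6 replicate 1 (0.086). Rpl28 ranged from -1.02 to -0.37 with RA, -0.83 to -0.35 with DMSO and -1.07 to -0.21 on the 5 HMBA arrays with a value, and was called with all 3 (-0.61 ± 0.10, -0.55 ± 0.10 and -0.75 ± 0.11).

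Among the other large falls, Rpl8, Rpl13, Rpl27 and Rpl37a were called with all 3 inducers, and Rpl29, Rps10 and Rpl32 with 2 of the 3. The difference between inducers was called for none of these 7 in the fit without the dye block. With RA, Rpl8 fell by 0.64 ± 0.12, Rpl13 by 0.63 ± 0.09, Rpl29 by 0.62 ± 0.14 and Rps10 by 0.61 ± 0.15. Rpl29 was -0.28 ± 0.14 and Rps10 was -0.35 ± 0.15 with DMSO, and neither was called there. With DMSO, Rpl32 fell by 0.65 ± 0.16 and Rpl27 by 0.64 ± 0.16, and both calls were lost without some single arrays. For DMSO, Rpl32 gave an adjusted p of 0.06 without day 2 replicate 1 and 0.057 without day 6 replicate 1, and Rpl27 gave 0.08, 0.082 and 0.094 without replicate 2 of days 2, 4 and 6 (limma). Rpl32 stood at -0.23 ± 0.16 with RA, not called. With HMBA, Rpl37a fell by 0.77 ± 0.17, and it was called with RA and DMSO too (-0.60 ± 0.17 and -0.58 ± 0.17).

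**Figure D2:**
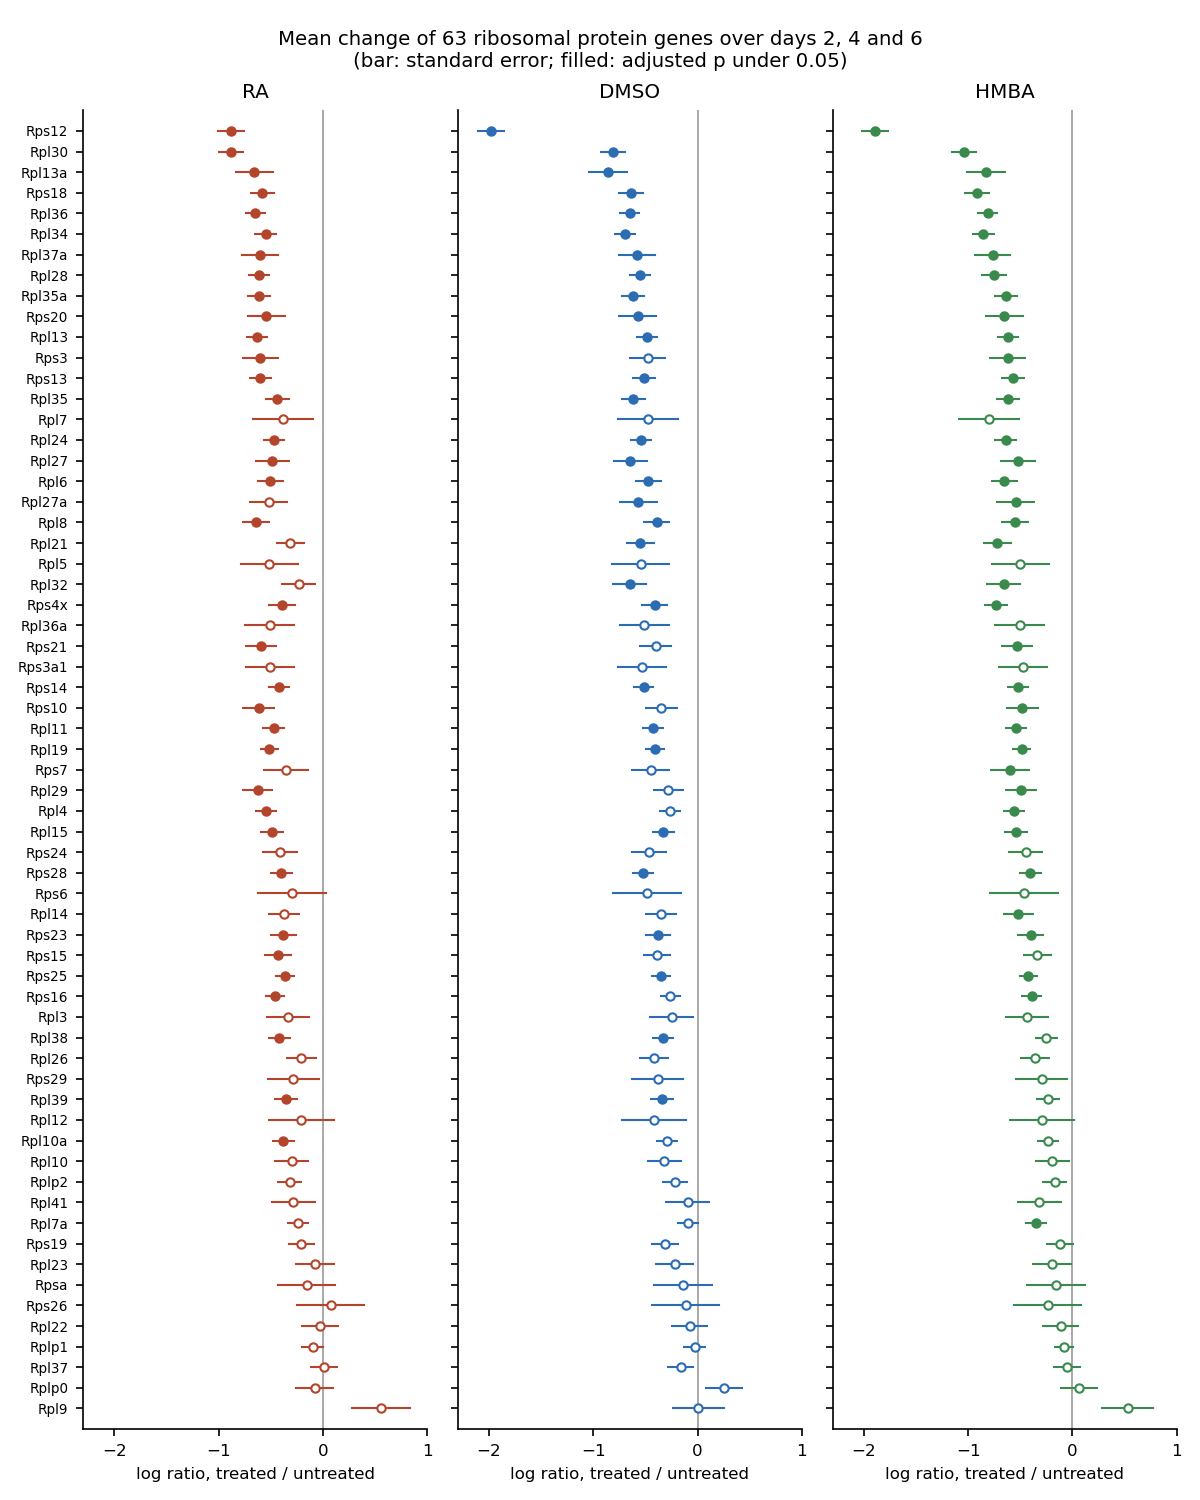
Change of each of the 63 ribosomal protein genes as the mean log ratio over days 2, 4 and 6 (x axis) with its standard error (bar), for RA, DMSO and HMBA; filled points have an adjusted p under 0.05. Points lie below 0 for 60 genes with RA, 61 with DMSO and 61 with HMBA, and Rps12 lies farthest left with DMSO (-1.98) and HMBA (-1.89).

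The proteins of the ribosomal stalk, which recruit elongation factors to the large subunit, did not pass the test with any inducer, at 0 of 3 genes each time. Rplp0, the base of the stalk, ranged from -0.39 to 0.20 with RA (median -0.09), -0.38 to 1.16 with DMSO (median 0.16) and -0.59 to 0.48 with HMBA (median 0.16). Its changes on this counted probe were -0.08 ± 0.17, 0.25 ± 0.17 and 0.07 ± 0.17. The other probe of Rplp0 averaged -0.07 with RA, -0.04 with DMSO and -0.20 with HMBA. With DMSO that probe was 0.15 to 0.70 in Cy3 and -0.71 to -0.42 in Cy5. Rplp1 stood at -0.10 ± 0.10, -0.03 ± 0.10 and -0.08 ± 0.09, and Rplp2 at -0.32 ± 0.11, -0.22 ± 0.11 and -0.17 ± 0.11. The arrays of Rplp0 spanned 0 with every inducer, whereas Rplp2 lay below 0 on every RA and DMSO array. With the dye block Rplp2 was called lower with RA (adjusted p = 0.0036 by limma) and DMSO (0.044) and not with HMBA (0.1). A test of the stalk against the other members was not made.

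The 5S particle proteins Rpl5 and Rpl11, which hold 5S ribosomal RNA and can bind Mdm2 when ribosome assembly is disturbed, had like means and unlike spread. Rpl11 was below 0 on all 18 arrays and fell by 0.47 ± 0.10 with RA, 0.43 ± 0.10 with DMSO and 0.54 ± 0.10 with HMBA. Rpl5 stood at -0.51 ± 0.27, -0.55 ± 0.27 and -0.50 ± 0.27 and was not called. Its DMSO arrays were 0.10, 0.10 and -0.07 in Cy3 and -0.87, -1.59 and -0.94 in Cy5. With the dye block Rpl5 was called lower with each inducer, at adjusted p of 0.0021, 0.0016 and 0.0025 (limma).

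Rps6, the target of the S6 kinases, was split by dye orientation in the same way. Its RA arrays were 0.50, 0.24 and 0.53 in Cy3 and -0.83, -1.33 and -0.88 in Cy5 on days 2, 4 and 6. The change of Rps6 was -0.30 ± 0.33 with RA, -0.49 ± 0.33 with DMSO and -0.46 ± 0.33 with HMBA, not called, and with the dye block it was called lower with each (adjusted p = 0.027, 0.0011 and 0.0012 by limma). Rpsa, the laminin receptor protein of the small subunit, was above 0 on all 9 arrays in Cy3 and below 0 on all 9 in Cy5. Rpsa changed by -0.16 ± 0.28, -0.14 ± 0.28 and -0.16 ± 0.28, and that probe was not called in either fit.

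Rps19, the gene most often mutated in Diamond-Blackfan anaemia, stood at -0.21 ± 0.12 with RA, -0.31 ± 0.12 with DMSO and -0.12 ± 0.12 with HMBA, not called. It was called with DMSO under the dye block (adjusted p = 0.013 by limma). Rpl38, which promotes translation of Hox messages in the embryo, fell by 0.42 ± 0.10 with RA and 0.33 ± 0.10 with DMSO and stood at -0.25 ± 0.10 with HMBA. Rps4x, the X-linked form of a small-subunit protein, fell by 0.39 ± 0.12, 0.41 ± 0.12 and 0.73 ± 0.10, with 1 array missing for RA and 1 for DMSO. Rpl10, which joins the large subunit last during its maturation, stood at -0.30 ± 0.16, -0.32 ± 0.16 and -0.19 ± 0.16 and was called under the dye block with RA (adjusted p = 0.01 by limma) and DMSO (0.0084).

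A few genes stayed near or above the untreated level. Rpl37 stood at 0.01 ± 0.12, -0.16 ± 0.12 and -0.05 ± 0.12, Rpl22 at -0.03 ± 0.17, -0.07 ± 0.17 and -0.11 ± 0.17, and Rps26 at 0.07 ± 0.32, -0.11 ± 0.32 and -0.24 ± 0.32 with RA, DMSO and HMBA. Rpl9, a large-subunit protein, was the gene with the highest change with RA and HMBA. Its RA arrays, without a value on day 4 replicate 2, ranged from -0.10 to 0.90 and its HMBA arrays from -0.34 to 1.12. The changes of 0.56 ± 0.28 and 0.53 ± 0.24 were not called, and with the dye block that of RA was 0.41 (adjusted p = 0.0058 by limma) and that of HMBA 0.53 (0.00017). With DMSO Rpl9 stood at 0.01 ± 0.24.

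The start sites are shown because messages of this family are known to begin with a run of pyrimidines. The stretches below are 30 bases, 15 on each side of the annotated start, from RefSeq on mouse build GRCm38.p6, 5′ to 3′ on the gene's strand. They are given for 3 genes that fell with each inducer on the counted probe (Rps18, Rpl28, Rpl13a) and 3 that were not called without the dye block (Rplp2, Rpsa, Rps26), with CTTTC or CTTCC in capitals.
Rps18: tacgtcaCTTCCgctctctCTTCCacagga
Rpl28: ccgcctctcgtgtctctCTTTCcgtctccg
Rpl13a: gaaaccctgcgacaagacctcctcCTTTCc
Rplp2: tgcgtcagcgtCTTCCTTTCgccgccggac
Rpsa: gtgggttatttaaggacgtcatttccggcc
Rps26: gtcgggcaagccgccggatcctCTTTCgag
They lie at Rps18 chr17:33955651-33955680 (- strand), Rpl28 chr7:4792950-4792979 (+ strand), Rpl13a chr7:45128731-45128760 (- strand), Rplp2 chr7:141447636-141447665 (+ strand), Rpsa chr9:120127751-120127780 (+ strand) and Rps26 chr10:128626492-128626521 (- strand). Of the 66 genes, 54 had an entry in the promoter table. CTTTC or CTTCC lay in the 30 bases on the gene strand for 20 of 54 genes (37.0%), against 12.1% of all 27025 genes, and on the other strand for 18.5% against 12.2%. Among genes measured on the 2-colour arrays, 11 of 19 with the letters and 18 of 32 without fell with RA. The counts were 11 of 19 and 12 of 32 with DMSO, and 13 of 19 and 16 of 32 with HMBA. Medians were -0.49 and -0.39 with RA, -0.46 and -0.40 with DMSO, and -0.54 and -0.44 with HMBA, and the difference was not tested. A match describes the letters in this window and is not evidence of a site.

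The medians of the ribosomal protein genes were below 0 from day 2. On single days 0, 20 and 9 genes were called lower on days 2, 4 and 6 of RA, 1, 12 and 4 with DMSO, and 2, 11 and 27 with HMBA. The background of lower calls was 1.99%, 3.45% and 5.3% with RA, 1.14%, 3.18% and 4.59% with DMSO, and 1.94%, 5.14% and 5.9% with HMBA. With the dye block the counts were 14, 50 and 28, then 11, 45 and 32, then 20, 37 and 50, on backgrounds of 9.44%, 13.5% and 18.4%, then 4.98%, 11.6% and 14.3%, then 9.68%, 15.1% and 16.4%. Between day 2 and day 6 no gene was called with any inducer by limma (0 of 63 each; background either way 1.09%, 0.955% and 1.48%). At an unadjusted p under 0.05, 1, 1 and 10 genes were lower on day 6 and 0 higher. The median difference of day 6 from day 2 was -0.18 with RA, -0.10 with DMSO and -0.36 with HMBA. With the dye block Rps12 was lower on day 6 with each inducer, and with HMBA so were Rpl13, Rpl30, Rpl4, Rpl7a and Rps10 (background either way 10.6%, 9.88% and 10%).

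Rps12, a small-subunit protein, had the largest change of any member with DMSO and HMBA, and it rests on 1 of its 2 probes. Both probes were complete, so the counted one was chosen by its probe ID alone. On the counted probe the RA arrays were 0.28 and -0.26 on day 2, -1.44 and -1.52 on day 4, and -1.09 and -1.24 on day 6. DMSO gave -1.04, -1.60, -1.93, -2.68, -1.99 and -2.63, and HMBA -0.98, -0.91, -2.37, -2.57, -2.19 and -2.32. All 12 DMSO and HMBA values were below 0, and the RA values of day 2 straddled it. The changes of Rps12 were -0.88 ± 0.12 with RA (1.84-fold lower), -1.98 ± 0.12 with DMSO (3.94-fold) and -1.89 ± 0.12 with HMBA (3.7-fold). The RA call of Rps12 was lost with days as replicates (adjusted p = 0.079 by limma). Its other probe stood at -0.34 ± 0.16, -0.46 ± 0.16 and -0.39 ± 0.16, not called, and called lower with each under the dye block.

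Differences between inducers were rare. Rps12 was higher with RA than with DMSO by 1.10 ± 0.18 (adjusted p = 0.0023 by limma) and than with HMBA by 1.01 ± 0.18 (0.0057), the single call among 63 members in each, against 6.19% and 3.28% of all probes in either direction. Its other probe differed by 0.12 ± 0.22 and 0.05 ± 0.22, not called, and with the mean of both probes the call was lost. Between DMSO and HMBA 0 genes were called by limma (background 1.45%), with 1 at an unadjusted p under 0.05. With the dye block Rpl29 was also lower and Rpl32 higher with RA than DMSO, Rpl21, Rpl32 and Rpl7 were higher with RA than HMBA, and Rpl9 was lower with DMSO than HMBA. The background either way was then 22.7%, 16.5% and 9.68%.

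Of the 8 genes with 2 probes, Rps16 and Rpl23, beside Rps12, Rps18 and Rplp0, gave values that depended on the probe. Both probes of Rpl35a fell with each inducer, and both of Rpl27a with DMSO and HMBA. The counted probe of Rps16 changed by -0.46 ± 0.09 with RA, -0.26 ± 0.09 with DMSO (not called) and -0.39 ± 0.09 with HMBA. Its other probe was -0.20 and 0.12 on day 2 of RA and between -1.72 and -1.32 on days 4 and 6, and changed by -1.06 ± 0.08, -1.64 ± 0.08 and -1.41 ± 0.08. That probe of Rps16 also fell from day 2 to day 6, by 1.65 ± 0.20, 1.32 ± 0.20 and 1.55 ± 0.20. For Rpl23 the counted probe was not called (-0.08 ± 0.18, -0.22 ± 0.18 and -0.20 ± 0.18), while the other fell by 0.61 ± 0.15, 0.68 ± 0.15 and 0.89 ± 0.15. Near-identical copies of ribosomal protein genes can share a probe, and which transcripts each probe reads was not tested.

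Rpl39l, a paralog of Rpl39 that is not a member, had larger changes than Rpl39 with DMSO and HMBA, a difference between genes that was not tested. Rpl39l was -1.31, -1.53, -3.57, -3.20, -3.17 and -3.39 on the DMSO arrays in order of day, -1.78, -1.34, -2.94, -2.94, -2.26 and -2.05 with HMBA, and 0.01, -0.32, -0.38, -0.44, -0.07 and 0.14 with RA. The RA arrays did not overlap those of the other inducers. It fell by 2.69 ± 0.09 with DMSO (6.47-fold) and 2.22 ± 0.09 with HMBA (4.65-fold) and stood at -0.18 ± 0.09 with RA. Rpl39l was higher with RA than with DMSO by 2.52 ± 0.13 (adjusted p = 1.9e-07 by limma) and than with HMBA by 2.04 ± 0.13 (2.8e-06). Rpl39 itself fell by 0.36 ± 0.11 with RA and 0.34 ± 0.11 with DMSO and stood at -0.23 ± 0.11 with HMBA. Of the 7 paralogs, 2, 4 and 5 fell.

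The 100 bases before the start of Rpl39 and Rpl39l are shown so that parent and paralog can be compared, with CCGGAAG, the core letters bound by ETS factors, in capitals (searched on both strands).
Rpl39: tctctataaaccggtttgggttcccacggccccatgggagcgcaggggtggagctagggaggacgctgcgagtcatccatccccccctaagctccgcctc
Rpl39l: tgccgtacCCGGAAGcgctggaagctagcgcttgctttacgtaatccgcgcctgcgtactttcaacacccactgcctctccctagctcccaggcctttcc
They lie at chrX:37085223-37085322 (- strand) and chr16:10170128-10170227 (+ strand). Over the whole 300-base promoter CCGGAAG was found for 23 of 54 members (42.6%) and 9.93% of all genes.

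**Figure D3:**
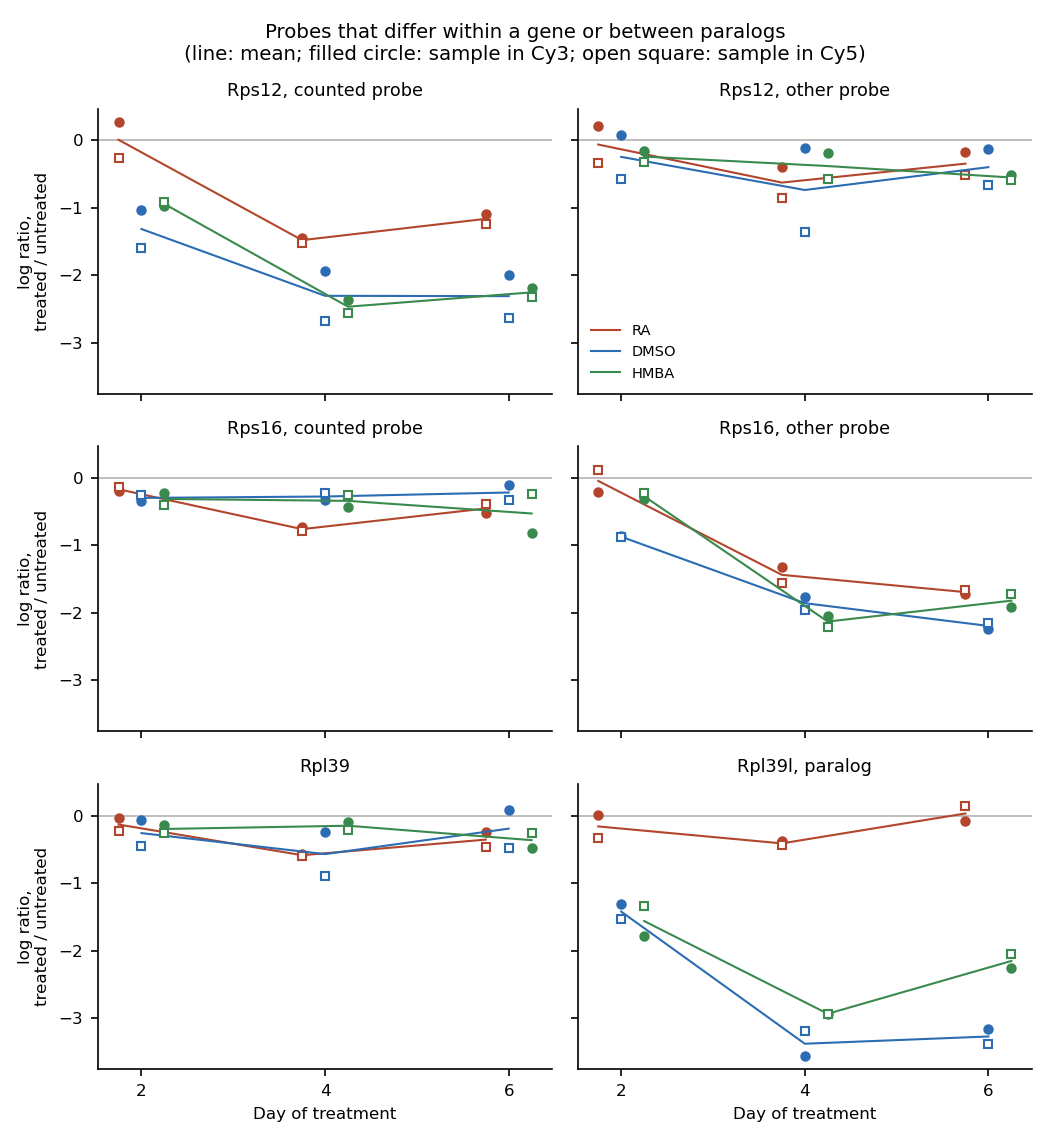
Log ratio of treated over untreated cells on each 2-colour array for both probes of Rps12 and Rps16 and for Rpl39 and its paralog Rpl39l, by inducer (colour) and day (x axis); circles have the sample in Cy3, squares in Cy5, and lines join the means. The 2 probes of each of Rps12 and Rps16 separate, and Rpl39l falls to -3.57 with DMSO while it stays between -0.44 and 0.14 with RA.

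On the RNAi arrays the count of ribosomal protein genes called depended on the probe set and the variance setting. Of 43 genes, 9 fell and 0 rose after Pou5f1 RNAi by limma, a share of 20.9% beside a background of 15.6% lower and 16.0% higher. After Nanog RNAi 1 fell and 0 rose, or 2.33% beside 6.78% lower and 8.8% higher. Pou5f1 RNAi was lower than Nanog RNAi for 5 genes and higher for 0 (11.6% beside 14.5% and 15.0%). At an unadjusted p under 0.05, 16, 1 and 11 genes were lower in these comparisons and 0 higher in each. On 1 probe set a gene, the lower share after Pou5f1 RNAi was above its background and the other 2 were below theirs. That background takes in dim probe sets, and it was 33.2% among those with a group mean of at least 6. A share above 15.6% is therefore not read as particular to these genes. More genes were called under other settings, and so, for the level filter, were more of all probe sets. Group means of at least 6 left out only the counted set of Rps16 among the 43 genes. With that filter 14 genes fell after Pou5f1 RNAi (background 33.2%) and 11 against Nanog RNAi (33.0%). The first share is near its background and the second is below it. With trend and robust variance 18 and 14 fell (15.7% and 14.8%). With the mean of a gene's probe sets, 13 and 12 fell (16.5% and 15.3%), and 3 after Nanog RNAi (7.06%). The median change was -0.11 after Pou5f1 RNAi and -0.02 after Nanog RNAi, beside -0.04 and -0.02 over all probe sets. Both comparisons use the same vector arrays.

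Of the 43 genes, 34 had a mean level between 12.49 and 13.55. The highest value of any tested probe set on any array was 13.71, and 14.06 with the control probe sets. On Nanog RNAi replicates 1, 2 and 5 the highest tested value was that of Rpl41 (13.61, 13.63 and 13.67). Whether the level of a gene bears on the size of its change was not tested. Of those 34 genes 5 fell after Pou5f1 RNAi, and of the 9 genes with means of 3.25 to 9.40, 4 fell. The lower share was 15.6% over all probe sets and 33.2% among those with a group mean of at least 6. Neither share was matched to the levels of these genes.

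Rpl14, a large-subunit protein, gave the largest fall. It was 7.82, 7.99, 7.97, 7.94 and 8.17 with vector, 7.81, 7.78, 7.79, 7.89 and 7.98 after Nanog RNAi and 7.05, 7.17, 7.31 and 7.27 after Pou5f1 RNAi. The Pou5f1 RNAi arrays lay below all others. Rpl14 fell by 0.78 ± 0.08 (1.71-fold, adjusted p = 1.7e-07 by limma). Rpl37 was 9.35 to 9.80 with vector, 9.44 to 9.66 after Nanog RNAi and 8.61 to 9.10 after Pou5f1 RNAi, a fall of 0.76 ± 0.10. Rps6 was 7.33 to 7.53, 7.43 to 7.57 and 6.82 to 6.94, a fall of 0.51 ± 0.07. Rpl37 and Rps6 did not overlap between Pou5f1 RNAi and the other groups. Rpl14, Rpl37 and Rps6, and Rps25 described below, are among the 9 genes with mean levels of 3.25 to 9.40. Among the 34 genes of higher level the lowest change after Pou5f1 RNAi was -0.39.

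Smaller falls after Pou5f1 RNAi were called for Rpl22 (-0.39 ± 0.07), Rps15 (-0.34 ± 0.07), Rps25 (-0.34 ± 0.10), Rpl11 (-0.26 ± 0.07), Rps18 (-0.20 ± 0.07) and Rpl27 (-0.17 ± 0.06). The call of Rps18 was lost without vector replicate 3 or Pou5f1 RNAi replicates 1, 2 or 4, at adjusted p of 0.069, 0.077, 0.058 and 0.071 (limma). Rps25, a small-subunit protein used by some viral internal ribosome entry sites, was the gene called after Nanog RNAi. It was 8.22 to 8.72 with vector, 7.89 to 8.08 after Nanog RNAi and 8.05 to 8.37 after Pou5f1 RNAi, and fell by 0.52 ± 0.09 after Nanog RNAi (1.43-fold). Set directly against Nanog RNAi, Pou5f1 RNAi gave lower Rpl14, Rpl37, Rps6, Rps15 and Rpl22, by 0.65, 0.72, 0.61, 0.33 and 0.30.

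**Figure D4:**
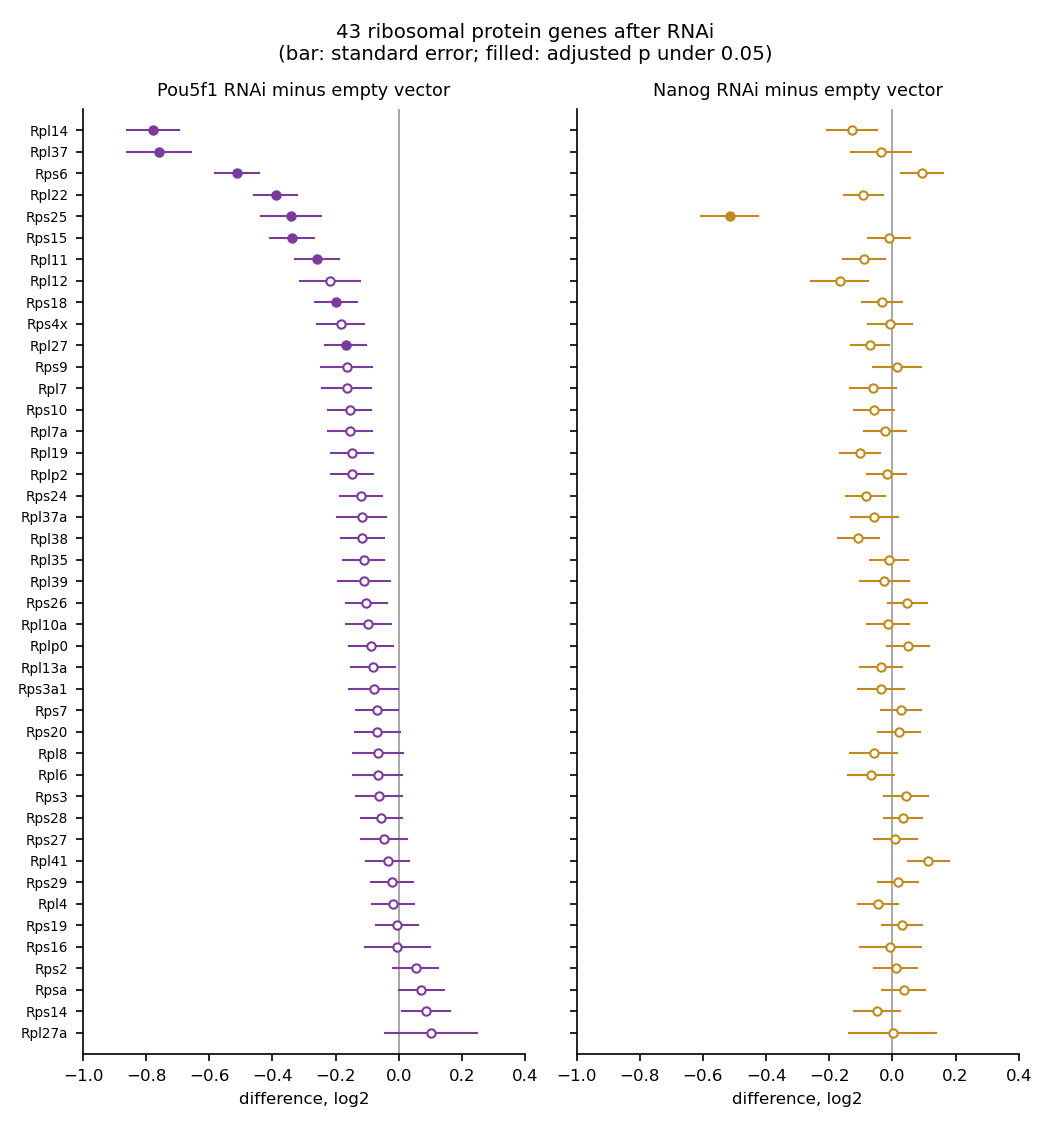
Change of each of the 43 ribosomal protein genes (log2 difference from vector, x axis) with its standard error (bar) after Pou5f1 RNAi and Nanog RNAi; filled points have an adjusted p under 0.05. Rpl14, Rpl37 and Rps6 lie at -0.78, -0.76 and -0.51 after Pou5f1 RNAi, and Rps25 at -0.52 after Nanog RNAi.

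Other members fixed for description did not pass the test after Pou5f1 RNAi. Rplp0 stood at -0.09 ± 0.07, Rplp2 at -0.15 ± 0.07, Rpsa at 0.07 ± 0.07, Rps19 at -0.01 ± 0.07, Rpl38 at -0.12 ± 0.07 and Rps4x at -0.18 ± 0.07.

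Probe sets of 1 gene disagreed here too. Over all 95 probe sets of these genes, 29 were lower and 1 higher after Pou5f1 RNAi, or 30.5% lower beside a background of 15.6%. The background was 33.2% among probe sets with a group mean of at least 6. After Nanog RNAi 4 were lower and 3 higher, or 4.21% lower beside 6.78%. Rpl13a stood at -0.08 ± 0.07 on the counted set, while 2 others fell by 0.81 ± 0.07 and 0.50 ± 0.07. Rpl27 fell by 0.17 ± 0.06 on the counted set and by 0.59 ± 0.07 and 0.53 ± 0.08 on others. A set of Rps3 outside the counted one rose by 1.05 ± 0.08 after Nanog RNAi, where the counted set stood at 0.04 ± 0.07. Of 6 paralogs, 5 fell after Pou5f1 RNAi and 0 after Nanog RNAi. Rpl39l was 11.08 to 11.30 with vector, 11.17 to 11.26 after Nanog RNAi and 8.86 to 9.02 after Pou5f1 RNAi, a fall of 2.28 ± 0.07 (4.86-fold).

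Genes that build ribosomes were counted beside the ribosomal protein genes, and the difference between lists was not tested. The background of lower calls is 15.6% after Pou5f1 RNAi, 6.78% after Nanog RNAi, 10.5% with RA, 7.62% with DMSO and 11.4% with HMBA. After Pou5f1 RNAi it is 33.2% among probe sets with a group mean of at least 6. Of 49 ribosome assembly genes, 35 fell (71.4%) and 1 rose after Pou5f1 RNAi, among them Nop10 (-1.24 ± 0.07) and Dkc1 (-1.49 ± 0.13), parts of the particle that modifies ribosomal RNA, and Pes1 (-0.89 ± 0.07). After Nanog RNAi 5 fell (10.2%) and 4 rose (8.16%, beside 8.8% of all probe sets). With RA, DMSO and HMBA, 19, 16 and 25 of 39 fell (48.7%, 41.0% and 64.1%) and 0, 1 and 0 rose, among them Nhp2 (-1.07 ± 0.12, -0.92 ± 0.12 and -1.37 ± 0.12). Of 75 mitochondrial ribosomal protein genes, 51 fell (68.0%) and 6 rose after Pou5f1 RNAi, and of 67 on the 2-colour arrays 19, 15 and 27 fell (28.4%, 22.4% and 40.3%). Translation factors fell for 5 of 23 (21.7%) after Pou5f1 RNAi and 5, 6 and 8 of 24 with the inducers (20.8%, 25% and 33.3%), among them Naca (-0.43 ± 0.09, -0.51 ± 0.09 and -0.64 ± 0.09). Of 18 genes of the Myc and mTOR list, 5 fell and 7 rose after Pou5f1 RNAi, and 3, 3 and 4 fell and 0, 1 and 1 rose with RA, DMSO and HMBA. Mycn, a Myc family factor that drives ribosome genes, fell by 1.85 ± 0.07 after Pou5f1 RNAi and by 1.20 ± 0.15, 1.31 ± 0.15 and 1.44 ± 0.15 with RA, DMSO and HMBA. Myc rose by 1.44 ± 0.10 after Pou5f1 RNAi, fell by 0.49 ± 0.14 with DMSO and stood at 0.05 ± 0.14 with RA and 0.07 ± 0.14 with HMBA.

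**Figure D5:**
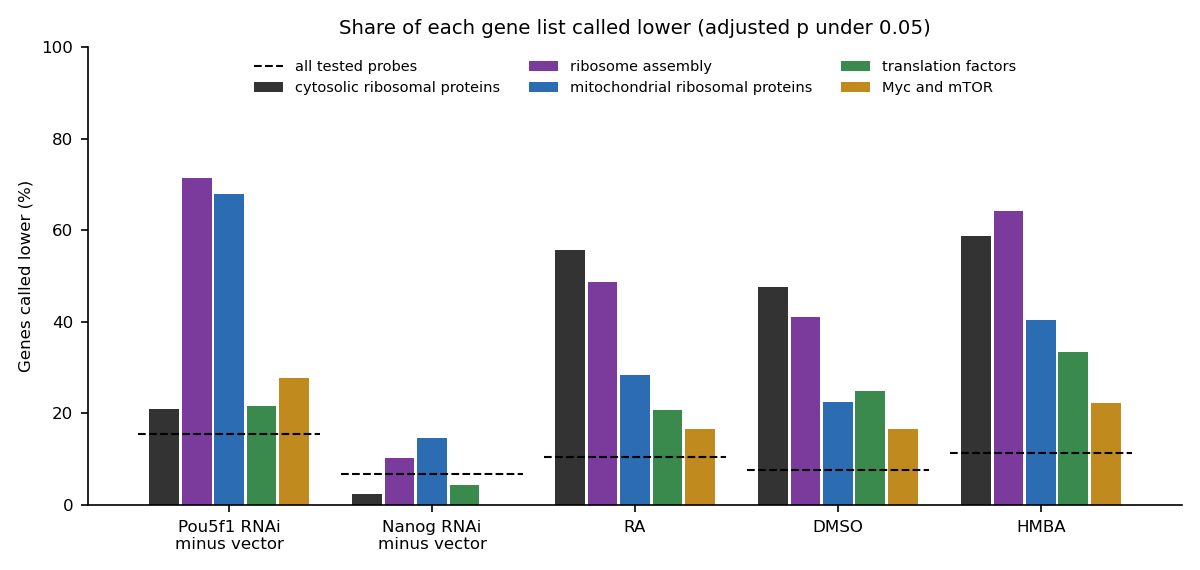
Share of each gene list called lower (percent, y axis) in each comparison, beside the background of all tested probes. Ribosomal protein genes reach 55.6%, 47.6% and 58.7% with RA, DMSO and HMBA and 20.9% after Pou5f1 RNAi, where ribosome assembly genes reach 71.4%.

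For the 40 genes on both platforms, the change after Pou5f1 RNAi and that with an inducer come from separate arrays. The change was below 0 for 37 of the 40 after Pou5f1 RNAi, 38 with RA, 39 with DMSO and 39 with HMBA. Both were below 0 for 35 genes with RA, 36 with DMSO and 36 with HMBA, the fewest that these counts allow. Over all 11037 genes on both platforms, both changes were below 0 for 33.5%, 30.3% and 35.0%. Across the 40 ribosomal protein genes, which are not independent replicates and share the platforms' probe choice, Pearson's r was -0.30, -0.12 and -0.12 and Spearman's rho -0.18, -0.02 and -0.04.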

How the data were processed

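RNAi arrays (Affymetrix, biotin-labelled RNA) were deposited by the authors as log2 values, made with RMA per the submitters' processing notes. The 2-colour values were deposited by the authors as log ratios, read here as log2. Per the labels, they were set to sample over reference whatever the dye. Their background correction and normalization are not given in the sources used here. Of 45101 probe sets 64 controls were set aside, and the 16657 of 21106 2-colour probes measured at least once per group were tested (10763 on every array). Symbols came from the platform annotation: 34945 and 13392 tested probes had 1 symbol, 932 and 87 several, and 9160 and 3178 none.

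Groups were compared with limma 3.58.1 in R 4.3.3 (lmFit, eBayes) over all tested probes of a platform, with Benjamini-Hochberg adjustment and a threshold of 0.05. Tables and figures were made in Python 3.11.15 with matplotlib 3.10.9. An inducer's change is the mean over its 3 days. Called members with the 8 largest rises and falls per comparison were described, with a fixed set of stalk, 5S and disease genes. Members, lists and rules were chosen with earlier results of these data known. Single-day tests, motif counts and the alternative with pseudogene names were added after seeing the data.

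Replicate numbers paired the 2-colour arrays, as they mark dye orientation: over all 72 same-number pairs the deviations correlated at 0.505 to 0.92. The 2 arrays of a group mirror each other in their deviations from the group mean. Each Cy5 pair therefore repeats the value of its Cy3 pair, and the 72 pairs are not separate evidence. On simulated data the fit recovered 69 of 100 changes of 0.5 and 99 of 100 of 1 for Pou5f1 RNAi over 45037 probes (3 false calls), and 35 and 76 of 100 for RA over 10763 probes (4 false calls). The simulated noise was normal and independent between arrays and between probes, without the shared deviations of same-number arrays above. These counts check the fit and are not rates of missed or false calls in these data. The number of arrays limits the precision. Alternatives were the dye block, days as replicates, probe choice, a level filter, variance settings, scaling and leaving out each array.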

Additional observations from a re-analysis of the deposited data

Results flagged for a closer look

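Among 129 tests of a gene within a group of 4 or 5 arrays, 7 values stood apart, 4 of them from Pou5f1 RNAi, and chance gives about 1 in 20. Rpl13a was 12.91 on Pou5f1 RNAi replicate 4 and 12.99 to 13.0 on the others. Rpl6 was 12.97 on Nanog RNAi replicate 4 against 12.77 to 12.8. Rps16 was 3.57 on vector replicate 3 against 3.15 to 3.21, and 3.1 on Pou5f1 RNAi replicate 2 against 3.29 to 3.31. On Pou5f1 RNAi replicate 3, Rps19 was 12.92 against 12.77 to 12.79 and Rpsa was 13.15 against 13.05 to 13.06. Rps25 was 7.89 on Nanog RNAi replicate 3 against 8.04 to 8.08.

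Responses differed between inducers for Rps12, by 1.1 (RA over DMSO) and 1.01 (RA over HMBA), and for the paralog Rpl39l, by 2.52 and 2.04. Rpl39l also differed between days of DMSO, by -1.85 from day 2 to day 6 (adjusted p = 0.0031 by limma).

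Probe sets that carry several gene names, which the counts of members leave out, were lower more often than all probe sets after Pou5f1 RNAi. Among all probe sets with a group mean of at least 6 the lower share was 33.2%, and the level of the sets below was not matched to it. Of 103 such sets, 46 were lower and 1 higher, or 44.7% lower beside 15.6% of all probe sets, with a median of -0.175, and after Nanog RNAi 0 were lower and 3 higher by limma.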

How the results depend on the processing

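Of 254 alternatives for 18 counts of members, 224 stayed within 1.5 times the reported count. Many of these counts are 0 and many alternatives leave out a single array, so this share does not measure how stable the counts above 0 are. Of 494 for 38 named genes and comparisons, 475 kept their call, 19 kept the direction and lost it, and 0 reversed. The cause of the moves below was not tested.

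The 9 genes lower after Pou5f1 RNAi became 14 with a group mean of at least 6, 18 with trend and robust variance, and 18 of 67 with pseudogene names too (chosen after seeing the data). Those lower than after Nanog RNAi went from 5 to 12 with the mean of all probe sets, 11 with the level filter, 14 with trend and robust variance and 12 with pseudogene names. After Nanog RNAi the 1 lower gene became 3 with the mean of all probe sets, 2 with probe sets designed for 1 gene and 0 with pseudogene names, and the 0 higher became 2 (Rpl41, Rps3) and 1 (Rps3).

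With the dye as replicate block, 54 genes fell with DMSO instead of 30, and 1 rose with RA and 1 with HMBA, as with days as replicates (Rpl9 each time). The block gave 1, 1 and 6 genes between days 2 and 6 of RA, DMSO and HMBA, 3 between RA and DMSO, 4 between RA and HMBA and 1 between DMSO and HMBA. The mean of all probes gave 1 between days of RA, 1 between days of HMBA, and 0 between RA and either other inducer.

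Leaving out 1 array gave 7 to 12 genes lower after Pou5f1 RNAi, 26 to 34 with RA, 16 to 32 with DMSO (16 without day 6 replicate 2) and 24 to 36 with HMBA (24 without day 6 replicate 1). Without DMSO day 4 replicate 1, the counted probe of Rplp0 changed by 0.51 with DMSO. Day 4 then rested on replicate 2 alone (1.16), the array with values for 11257 probes.

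On the RNAi arrays same-number arrays share only a number: 5 of 13 pairs correlated over 0.1 and 9 of 14 arrays matched best with their own number. The replicate block gave 8 genes lower after Pou5f1 RNAi, 1 after Nanog RNAi and 5 between them. Depth on arrays is set by signal over background, which these files do not give.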
